A study of Arabidopsis thaliana with 20 samples.

Results

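Rosettes of 2 Arabidopsis thaliana mutants were compared directly after ozone, the wrky25 wrky33 double mutant against the wrky75 single mutant, with no Col-0 library in the comparison. The 6 libraries, 3 of each mutant, were taken from 20 in the series by their titles. The wrky25 wrky33 ozone and wrky75 ozone groups were whole rosettes, 3 weeks old, that had received 350 ppb ozone for 2 h, and the wrky25 wrky33 control and wrky75 control groups (3 libraries each) were rosettes of the same age without ozone. Col-0, the wild-type accession, had 4 libraries with ozone and 4 without, and these served only as a separate description. Each library came from 5 pooled rosettes, which the labels describe as a biological replicate. The labels name each mutant by its gene and give no allele. Because whole rosettes were sampled, fewer cells of a type and less RNA per cell cannot be told apart.

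WRKY proteins are plant transcription factors that bind the W-box, a short DNA element with the core TTGAC. WRKY33 is known as an activator of the genes for camalexin, the main indole phytoalexin of Arabidopsis, and is needed for resistance to necrotrophic fungi; WRKY25 is its close relative. WRKY75 is known from phosphate starvation, root hair formation and leaf senescence. Ozone enters leaves through the stomata and breaks down in the apoplast, the space outside the plasma membrane, into reactive oxygen species that lead to the induction of defence genes.

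Levels are given in CPM, a gene's counts per 1e6 counts of its library after scaling by TMM factors over the 12 mutant libraries. A gene is called where the Benjamini-Hochberg adjusted p of edgeR's quasi-likelihood test over all 19715 genes tested was under 0.05. Fold changes are log2 values of wrky25 wrky33 over wrky75, with their standard error (SE). Totals of the 6 ozone libraries ran from 20505104 to 20755838 counts. The first principal component of these 6 libraries (48.9% of the variance) separated the mutants, with scores of -35.5 to -25.5 for wrky25 wrky33 and 14.5 to 39.4 for wrky75. The second (27.6%) set replicate 1 of each mutant apart, at 21.1 for wrky25 wrky33 and 41.1 for wrky75, from the other 4 libraries at -22.4 to -6.1. Markers of mesophyll were present in every ozone library and 0 of 6 were called (1 higher when replicate numbers were blocked), and 6 of 9 seed storage genes had no read in any ozone library. Among guard cell, phloem and pollen markers, 1 of 9, 2 of 8 and 1 of 2 tested were called, all higher in wrky25 wrky33. They were MUTE, SWEET11, SWEET12 and AGL65, with log2 differences of 0.66 to 0.87, while the medians of the guard cell and phloem lists were 0.19 and 0.03. MUTE was not called with all 20 libraries, by DESeq2 or without both ozone replicates 1, 1 phloem marker was called with all 20 libraries and 1 without both ozone replicates 1, and AGL65 was not called with all 20 libraries. Summed guard cell markers, scaled over all 20 libraries, held 3095, 3129 and 3069 CPM in wrky25 wrky33 ozone and 3271, 3661 and 3076 CPM in wrky75 ozone, and overlapped. Summed phloem markers held 709 to 726 CPM in wrky25 wrky33 ozone and 625 to 635 CPM in wrky75 ozone; their part in the results was not tested.

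Under ozone the mutated genes did not separate the libraries by a loss of reads. WRKY25 had 181, 223 and 184 CPM in wrky25 wrky33 ozone, against 118, 156 and 128 CPM in wrky75 ozone (log2 0.55 ± 0.26 SE, edgeR adjusted p = 0.286, 0.0379 under the replicate block and 0.000207 with a block within each treatment). Without ozone it lay the other way, at 3.47, 5.58 and 3.08 CPM in wrky25 wrky33 control, against 6.78, 14.4 and 6.68 CPM in wrky75 control, with no overlap but no call (log2 -1.2 ± 0.31 SE, edgeR adjusted p = 1); the difference of differences was 1.75 (edgeR adjusted p = 0.0809). WRKY33 had 438, 344 and 229 CPM in wrky25 wrky33 ozone, against 585, 421 and 339 CPM in wrky75 ozone (log2 -0.41 ± 0.44 SE, edgeR adjusted p = 0.699), and the groups overlapped, as they did without ozone at 12.2, 14.3 and 13.4 CPM in wrky25 wrky33 control and 11.6, 55.8 and 18.8 CPM in wrky75 control. WRKY75 had 19.3, 25.5 and 21.3 CPM in wrky25 wrky33 ozone, against 28.7, 73.4 and 58.2 CPM in wrky75 ozone (log2 -1.28 ± 0.29 SE, edgeR adjusted p = 0.0225). Every wrky75 library thus had a higher WRKY75 level than any wrky25 wrky33 library. That call ended without any 1 of the 3 wrky25 wrky33 ozone libraries or without wrky75 ozone replicate 2 or 3 (adjusted p 0.0536 to 0.0989). With all 20 libraries scaled together, Col-0 under ozone averaged 122 ± 17.7 CPM for WRKY25, 519 ± 179 for WRKY33 and 84.1 ± 41.0 for WRKY75 (SD, n = 4). In that scaling WRKY25 without ozone was at 3.58, 5.55 and 3.14 CPM in wrky25 wrky33, under all 4 Col-0 libraries at 8.38, 16.1, 12.6 and 12.9 CPM. Counts over a whole gene do not show whether its transcript is intact, so these values do not check the genotypes, and wrky25 wrky33 and wrky75 stand for the libraries so labelled.

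Under ozone 1309 of 19715 genes (6.64%) were called. Of these, 493 (2.5% of genes tested) were higher and 816 (4.14%) lower in wrky25 wrky33. Large differences lay mostly on the lower side: 356 of the lower genes differed by at least 2-fold and 126 by at least 4-fold, against 95 and 13 of the higher genes. The median log2 difference was -0.88 over the lower and 0.63 over the higher genes, and 0.01 over all genes tested. The libraries of the mutants did not overlap for 813 of the lower and 491 of the higher genes, where 11% of all genes tested lay lower and 11.9% higher without overlap. With the replicate number as a block, 2113 genes (10.7%) were called, 875 higher (4.44%) and 1238 lower (6.28%), 1306 of them among the 1309. With a separate block in each treatment there were 4142 (21%), 1994 higher (10.1%) and 2148 lower (10.9%), which moved the lower share to 51.9%, from 62.3% without a block. The count was 799 without wrky25 wrky33 ozone replicate 2, 750 without its replicate 3, 767 without wrky75 ozone replicate 2 and 797 without its replicate 3. Without both ozone replicates 1 it was 1252 (504 higher, 748 lower). The fits without 1 library had no block, although same-numbered libraries within a treatment deviated together, so each such omission also broke a pair. Calls said below to end without a library are calls of these unblocked fits. Of the 91 named genes called, 0 lost the call with the replicate block and 0 with a block within each treatment. Called genes were spread over the chromosomes, at 6.34% to 7.08% of the genes tested on chromosomes 1 to 5, and 1 of 60 plastid genes and 0 of 14 mitochondrial genes were called.

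**Figure D1:**
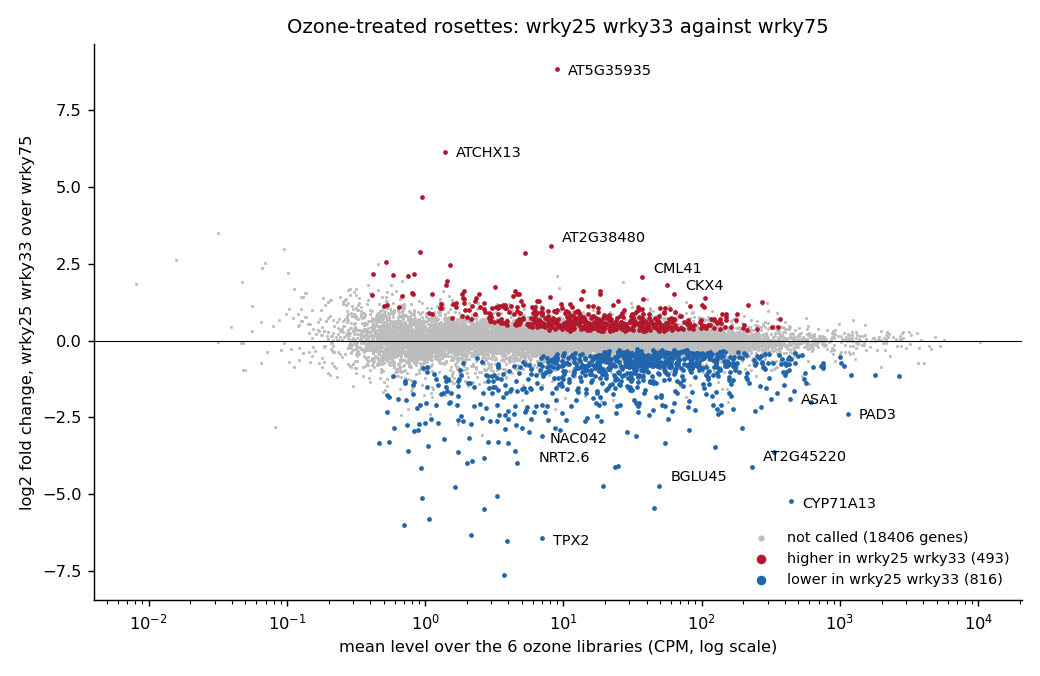
Each point is 1 of 19715 genes, with its mean level over the 6 ozone libraries (CPM, log scale) against its log2 fold change, wrky25 wrky33 over wrky75. Red points are the 493 called genes higher and blue points the 816 called genes lower in wrky25 wrky33; CYP71A13 and PAD3 stand out at high levels on the lower side.

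Camalexin genes were lower in wrky25 wrky33 at several steps. Of 12 tested members of the camalexin and indole carbonyl nitrile list, 7 (58.3%) were lower in wrky25 wrky33 and 0 higher, with a list median of -1.24. Over all genes tested 6.64% were called. Without ozone the list median was already -0.76, with 0 members called. The median difference of differences was -0.29, also with 0 members called. CYP71A13, the cytochrome P450 that turns indole-3-acetaldoxime into indole-3-acetonitrile, had 24.0, 11.1 and 34.5 CPM in wrky25 wrky33 ozone, against 870.3, 719 and 1015 CPM in wrky75 ozone. The highest wrky25 wrky33 library lay far under the lowest wrky75 library, and the difference was log2 -5.22 ± 0.60 SE (edgeR adjusted p = 0.000266). PAD3, the cytochrome P450 of the last step to camalexin, had 409.9, 272 and 424 CPM in wrky25 wrky33 ozone, against 2158, 1608 and 2014 CPM in wrky75 ozone (log2 -2.39 ± 0.44 SE, edgeR adjusted p = 0.00657). Without ozone PAD3 stayed under 1 CPM in all 3 wrky25 wrky33 libraries and at 0.976, 6.54 and 1.74 CPM in wrky75. NAC042, a transcription factor known to act on camalexin genes, had 7.6, 6.1 and 7.13 CPM in wrky25 wrky33 ozone, against 43.4, 65.8 and 70.8 CPM in wrky75 ozone (log2 -3.11 ± 0.27 SE, edgeR adjusted p = 3.92e-05). CYP82C2, which hydroxylates indole carbonyl nitrile, was low in both groups, with 0.146, 0.0463 and 0.322 CPM in wrky25 wrky33 ozone and 1.98, 1.96 and 1.8 CPM in wrky75 ozone. Every wrky25 wrky33 value of these genes lay under every wrky75 value. The other called members, named to complete the count after their values were seen, were FOX1 (AT1G26380), MYB122 and CYP71A12. FOX1, an oxidase of the indole carbonyl nitrile branch, had 122, 77.6 and 47.0 CPM in wrky25 wrky33 ozone, against 492, 425 and 286 CPM in wrky75 ozone (log2 -2.29 ± 0.34 SE, edgeR adjusted p = 0.00176), and MYB122, a MYB factor of indole metabolism, differed by log2 -1.72 ± 0.16 SE.

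Other steps differed less or were not called. CYP71A12, a tandem copy beside CYP71A13, had 265, 291 and 279 CPM in wrky25 wrky33 ozone, against 425, 534 and 449.7 CPM in wrky75 ozone, a much smaller difference than that of its neighbour; reads common to such copies may have been left uncounted or split. GGP1, a peptidase that acts on the glutathione conjugate of the pathway, had log2 0.02 (edgeR adjusted p = 0.973). CYP79B2 and CYP79B3, which make the acetaldoxime shared with auxin and indole glucosinolates, had log2 values of -0.64 and -0.5 and were not called (edgeR adjusted p = 0.381 and 0.266). These members were picked after their values were seen.

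Tryptophan synthesis, which supplies this pathway, was lower too: 6 of 10 tested genes, 0 higher, with a list median of -0.84. ASA1, the alpha subunit of anthranilate synthase at the entry to the pathway, had 183, 167 and 199 CPM in wrky25 wrky33 ozone, against 625, 642 and 777 CPM in wrky75 ozone (log2 -1.9 ± 0.17 SE, edgeR adjusted p = 6.03e-05). TSA1, the alpha chain of tryptophan synthase, had 265, 154 and 221 CPM in wrky25 wrky33 ozone, against 598, 492 and 643 CPM in wrky75 ozone (log2 -1.44 ± 0.19 SE, edgeR adjusted p = 0.000764). ASB1 and the indole-3-glycerol phosphate synthase gene AT2G04400 were lower by log2 -1.07 ± 0.18 SE and -1.03 ± 0.2 SE. Without ozone the mutants had similar ASA1 values, 40.5, 62.0 and 50.7 CPM in wrky25 wrky33 control and 48.0, 68.0 and 54.5 CPM in wrky75 control. In contrast, 0 of 13 indole glucosinolate genes were called, with a median of -0.19; the members furthest from 0 were IGMT1 at log2 -0.67 (edgeR adjusted p = 0.315) and CYP81F2 at -0.64 (0.553). With a block within each treatment both passed (edgeR adjusted p = 0.0259 and 0.00812), and 2 genes of the list were higher and 2 lower.

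Promoters of the genes were searched for the W-box forms TTGACC and TTGACT on either strand, from 250 bases before to 50 bases after the annotated gene start of the RefSeq annotation of TAIR10.1; overlapping matches were counted. At least 1 match was present in 353 of 812 promoters of lower genes (43.5%), in 64 of 126 of those at least 4-fold lower (50.8%) and in 153 of 483 of higher genes (31.7%), beside 32.8% of all 19138 promoters of genes tested. With TTGAC alone the shares were 64.4%, 71.4%, 47.6% and 50.9%. Among the 12 largest decreases named by rule, 8 windows held a match, and among 11 of the 12 largest increases with a protein-coding promoter, 4 did. The 250 bases before the start are printed for a strongly lower gene with 4 matches (CYP82C3), a camalexin regulator with 2 (NAC042), the most strongly lower camalexin enzyme with 0 in this window (CYP71A13) and a higher gene with 2 (CKX4). They run 5′ to 3′ on the strand of the gene, with W-box matches in capitals, and lie in TAIR10.1 at chr4:15454833-15455082 (plus strand, CYP82C3), chr2:17882637-17882886 (minus strand, NAC042), chr2:13111989-13112238 (minus strand, CYP71A13) and chr4:14565933-14566182 (plus strand, CKX4).
CYP82C3: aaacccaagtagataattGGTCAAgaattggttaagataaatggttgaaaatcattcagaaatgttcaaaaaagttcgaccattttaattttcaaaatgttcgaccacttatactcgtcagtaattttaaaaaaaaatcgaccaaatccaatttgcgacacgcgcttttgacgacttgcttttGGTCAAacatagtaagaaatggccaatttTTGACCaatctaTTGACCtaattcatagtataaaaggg
NAC042: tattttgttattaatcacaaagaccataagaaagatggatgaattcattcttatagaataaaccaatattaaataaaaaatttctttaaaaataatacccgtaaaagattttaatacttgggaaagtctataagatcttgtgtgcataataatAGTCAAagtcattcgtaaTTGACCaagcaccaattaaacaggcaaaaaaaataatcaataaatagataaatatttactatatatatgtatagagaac
CYP71A13: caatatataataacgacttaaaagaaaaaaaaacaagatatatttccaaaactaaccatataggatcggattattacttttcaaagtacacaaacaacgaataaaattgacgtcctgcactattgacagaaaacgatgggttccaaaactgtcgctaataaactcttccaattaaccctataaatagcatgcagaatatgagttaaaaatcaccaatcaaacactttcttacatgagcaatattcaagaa
CKX4: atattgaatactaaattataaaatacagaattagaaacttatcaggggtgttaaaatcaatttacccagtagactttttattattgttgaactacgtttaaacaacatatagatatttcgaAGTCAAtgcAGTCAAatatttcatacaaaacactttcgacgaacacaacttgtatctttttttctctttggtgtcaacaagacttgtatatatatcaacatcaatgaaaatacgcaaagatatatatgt
The first bases of the CYP82C3 matches lay at -232, -67, -38 and -26 from the gene start, those of NAC042 at -97 and -79, and those of CKX4 at -129 and -120. The core TTGAC followed by another base was left in small letters. The CYP71A13 stretch, with 0 TTGACC or TTGACT, does hold this core. A match is a description of letters and not a binding site, and its absence from a window says nothing about binding elsewhere.

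The other 10 genes named by rule made up the largest decreases with CYP71A13 and NAC042, all called with no overlap and a mean of at least 5 CPM over the 6 ozone libraries. TPX2 (AT1G65970), a thioredoxin-dependent peroxidase, had 0.0974, 0.139 and 0.23 CPM in wrky25 wrky33 ozone, against 8.74, 16.4 and 16.4 CPM in wrky75 ozone (log2 -6.42 ± 0.49 SE, edgeR adjusted p = 1.57e-05). BGLU45, a beta-glucosidase known to act on monolignol glucosides, had 2.97, 4.12 and 3.59 CPM in wrky25 wrky33 ozone, against 88.3, 109 and 88.4 CPM in wrky75 ozone (log2 -4.74 ± 0.16 SE, edgeR adjusted p = 2.2e-08). For both genes every wrky25 wrky33 library lay far under every wrky75 library. NRT2.6, a high affinity nitrate transporter, had 1.95, 3.28 and 2.99 CPM in wrky25 wrky33 ozone, against 38.7, 61.7 and 39.4 CPM in wrky75 ozone (log2 -4.08 ± 0.23 SE). RHA1A, a RING-H2 finger protein, had 7.79, 11.6 and 9.84 CPM in wrky25 wrky33 ozone, against 95.9, 107 and 91.5 CPM in wrky75 ozone (log2 -3.33 ± 0.15 SE). AT2G45220, annotated in the pectin methylesterase inhibitor superfamily, had 15.8, 25.2 and 34.1 CPM in wrky25 wrky33 ozone, against 236, 530.1 and 537 CPM in wrky75 ozone (log2 -4.12 ± 0.45 SE), and its lowest wrky75 value came from replicate 1. AT1G26390, an FAD-binding berberine family oxidase, had 2.97, 1.34 and 1.75 CPM in wrky25 wrky33 ozone, against 53.9, 103 and 106 CPM in wrky75 ozone (log2 -5.44 ± 0.45 SE). The other 4 were AT1G13520 (DUF1262, -4.75), CYP82C3 (a close relative of CYP82C2, -4.14), AT3G22600 (a lipid-transfer protein, -3.61) and AT5G38900 (a thioredoxin superfamily protein, -3.48). All 12 kept their call without any 1 of the 12 libraries. Under 5 CPM the 3 lower genes with the smallest p were AT4G22960 (-3.59), the peroxidase AT5G19880 (-5.05) and the acyl-carrier-protein desaturase AT5G16230 (-2.39).

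**Figure D2:**
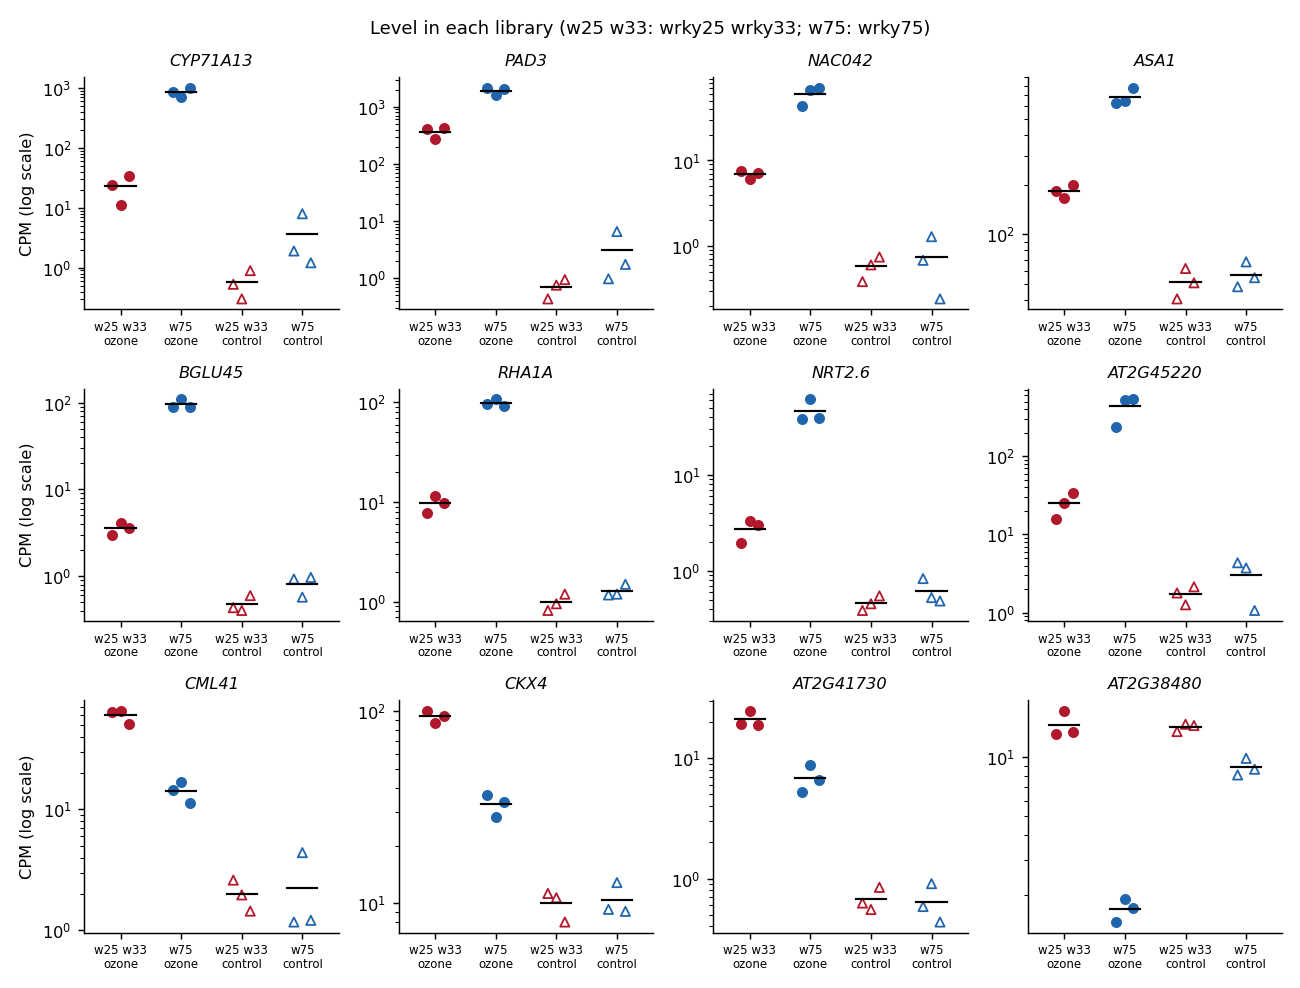
Level of 12 genes in each mutant library (CPM, log scale), with wrky25 wrky33 in red and wrky75 in blue, filled circles for ozone, open triangles for control and bars at group means. The first 8 panels show genes lower in wrky25 wrky33 under ozone and the last 4 genes higher there; AT2G38480 alone among these 12 has wrky25 wrky33 control values inside the range of its wrky25 wrky33 ozone values.

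Genes higher in wrky25 wrky33 were fewer, with a smaller median difference, although AT5G35935, described further on, had the largest fitted difference of the comparison (log2 8.84). CML41, a calmodulin-like calcium sensor, had 63.3, 65.4 and 50.9 CPM in wrky25 wrky33 ozone, against 14.4, 16.9 and 11.4 CPM in wrky75 ozone (log2 2.07 ± 0.33 SE, edgeR adjusted p = 0.00267). CKX4, a cytokinin oxidase that degrades cytokinins, had 101, 86.8 and 94.6 CPM in wrky25 wrky33 ozone, against 36.5, 28.3 and 33.6 CPM in wrky75 ozone (log2 1.52 ± 0.16 SE, edgeR adjusted p = 0.000135). AT1G28600, a GDSL lipase, had 169, 151 and 142 CPM in wrky25 wrky33 ozone, against 67.9, 53.8 and 55.3 CPM in wrky75 ozone (log2 1.38 ± 0.2 SE). Groups did not overlap for any of these genes, and each also kept its call without any 1 library. AT3G09450, of the fusaric acid resistance family, had 8.13, 8.14 and 11.3 CPM in wrky25 wrky33 ozone, against 1.82, 1.03 and 0.996 CPM in wrky75 ozone (log2 2.85 ± 0.37 SE). AT2G41730, annotated as a calcium-binding site protein, and AT1G21060, a DUF547 protein, were each higher by log2 1.61, with SE 0.2 and 0.11. ASG8 (log2 1.41) and AT2G28570 (1.36) had no annotated function. The calls of AT3G22910, an E1-E2 type ATPase (log2 1.81 ± 0.43 SE), and AT2G39530 (1.5 ± 0.4 SE) depended on the fit. The first ended without any 1 of 5 ozone libraries (edgeR adjusted p 0.0556 to 0.101), at log2 1.53 to 1.98 over all omissions. The second ended without any 1 of 4 ozone libraries or 2 wrky25 wrky33 control libraries (0.0543 to 0.152), and DESeq2 gave it an adjusted p of 0.385. With all 20 libraries neither was called (edgeR adjusted p = 0.2 and 0.0814), and with the replicate block both were (0.0189 and 0.00444). Under 5 CPM the rule named ATCHX13, AT3G60170 (log2 4.67) and LBD26 (1.61).

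AT5G35935 and AT2G38480, the 2 largest increases named by rule, and the low-level ATCHX13 had either a difference without ozone as well or a place next to a mutated gene. AT5G35935 held 18.3, 16.4 and 18.8 CPM in wrky25 wrky33 ozone, against 0.052, 0 and 0.0474 CPM in wrky75 ozone. That is 1139 against 2 counts, a ratio of 570 with a 95% exact counting interval of 157 to 4710. It was present without ozone too, at 16.2, 14.7 and 15.8 CPM in wrky25 wrky33 control, against 0.0488, 0.0955 and 0.145 CPM in wrky75 control, and averaged 3.69 ± 2.37 CPM in Col-0 under ozone (SD, n = 4, scaled over 20 libraries). ATCHX13, a cation/hydrogen exchanger gene next to WRKY25 on chromosome 2 (12899575 to 12902815, minus strand, 392 bases from the annotated end of WRKY25), held 176 against 2 counts under ozone, a ratio of 88.1 with an interval of 24 to 733. Without ozone it held 842 counts in wrky25 wrky33 and 0 in wrky75, at least 281-fold higher when the empty group is set to its floor of 3 counts in all, and Col-0 under ozone averaged 0.0253 ± 0.0292 CPM.

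AT2G38480, a UPF0497 family gene next to WRKY33, had 13, 17.1 and 13.3 CPM in wrky25 wrky33 ozone, against 1.46, 1.91 and 1.71 CPM in wrky75 ozone (log2 3.09 ± 0.15 SE, edgeR adjusted p = 6.05e-07). Without ozone it had 13.4, 14.6 and 14.4 CPM in wrky25 wrky33 and 8.1, 9.83 and 8.66 CPM in wrky75, a difference of log2 0.68 that was not called (adjusted p = 0.581). The wrky75 level was thus lower with ozone than without, and the wrky25 wrky33 level was close in both treatments. AT2G38480 (16110741 to 16111911, minus strand) and WRKY33 (16108235 to 16110766, plus strand) face each other on chromosome 2 and share 26 annotated bases; the kit does not mark strand, so reads in those bases cannot be assigned by strand. Of 60 genes within 10 positions of WRKY25, WRKY33 or WRKY75, 49 were tested and 2 called, ATCHX13 and AT2G38480. That share was not above the 6.64% called over all genes tested.

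**Figure D3:**
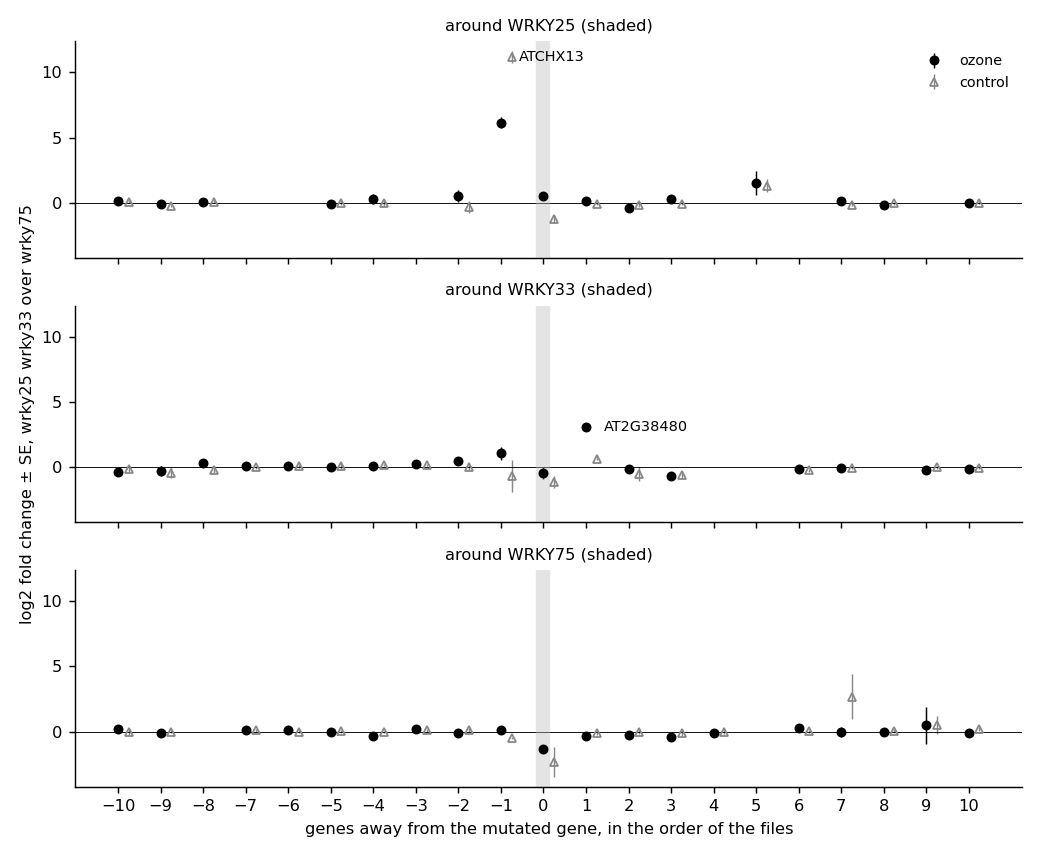
Log2 fold change, wrky25 wrky33 over wrky75, with its SE, for tested genes up to 10 positions from each mutated gene (shaded), black circles for ozone and grey triangles for control. ATCHX13 beside WRKY25 and AT2G38480 beside WRKY33 are the 2 called neighbours; the fitted control value of ATCHX13 depends on the prior count, because 1 group held 0 counts.

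Of 29 other WRKY genes tested, 7 were lower and 1 higher (27.6% called, beside 6.64% of all genes), with a median of -0.24; without both ozone replicates 1, 4 were lower. WRKY41 had 2.19, 1.25 and 1.47 CPM in wrky25 wrky33 ozone, against 4.16, 3.92 and 4.12 CPM in wrky75 ozone (log2 -1.31 ± 0.2 SE, edgeR adjusted p = 0.00197). WRKY31 (-2.13), WRKY55 (-1.64) and WRKY45 (-1.32) were called too, but each call ended without any 1 of 3, 3 and 5 ozone libraries (adjusted p up to 0.0768, 0.0991 and 0.0662). WRKY3, the only higher member, was named after its values were seen and had log2 0.7. WRKY40, WRKY53 and WRKY70, widely used defence regulators, had log2 -0.71, -0.54 and 0.01 and were not called (edgeR adjusted p = 0.509, 0.592 and 0.996).

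Genes of danger signalling and of the ethylene pathway were lower at single steps. Of 29 pattern-triggered immunity genes 6 were lower and 0 higher (20.7% called, median -0.17), beside 6.64% of all genes tested. With the replicate block 8 were lower and 4 higher, where 10.7% of all genes were called. PROPEP3, the precursor of an elicitor peptide, had 4.09, 3.38 and 2.02 CPM in wrky25 wrky33 ozone, against 24.6, 14.1 and 10.2 CPM in wrky75 ozone (log2 -2.36 ± 0.35 SE, edgeR adjusted p = 0.00164). PEPR2, a receptor of such peptides, had 13.7, 11.9 and 16.2 CPM in wrky25 wrky33 ozone, against 34.4, 38.7 and 37.5 CPM in wrky75 ozone (log2 -1.4 ± 0.2 SE, edgeR adjusted p = 0.00114). PUB23, a U-box ubiquitin ligase that dampens immune signalling, was lower by log2 -2.31 ± 0.35 SE, and PROPEP2 by -1.69 ± 0.35 SE, a call that ended without any 1 of 3 ozone libraries (adjusted p up to 0.0758). The pattern receptor genes FLS2, EFR and CERK1 had log2 0.46, -0.1 and -0.29 and were not called.

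Of 27 ethylene genes 5 were lower and 0 higher (18.5% called, median -0.01), beside 6.64% of all genes tested. With the replicate block 8 ethylene genes were lower, where 10.7% of all genes were called. ACS2, an enzyme of the rate-limiting step of ethylene synthesis, had 2.78, 1.76 and 2.71 CPM in wrky25 wrky33 ozone, against 10.7, 11.8 and 14.2 CPM in wrky75 ozone (log2 -2.34 ± 0.25 SE, edgeR adjusted p = 0.000182). ACO4 (EFE), an oxidase of the last step, had 1088, 1039 and 1229 CPM in wrky25 wrky33 ozone, against 2500, 2507 and 2346 CPM in wrky75 ozone (log2 -1.13 ± 0.18 SE, edgeR adjusted p = 0.00245). The response factors ERF6 (-1.75) and ORA59 (-1.36) were called, but their calls ended without any 1 of 7 and 5 libraries (adjusted p up to 0.166 and 0.0865), DESeq2 called neither (adjusted p = 0.0725 and 0.167), and 2 ethylene genes were lower without both ozone replicates 1. The receptors ETR1, ETR2, ERS1, ERS2 and EIN4 had log2 values from -0.08 to 0.1 and none was called.

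Without a block, 9.38%, 8.7% and 8.7% of the tested jasmonate, salicylic acid and abscisic acid genes were called, near the 6.64% of all genes tested. Of 32 jasmonate genes 3 were lower and 0 higher, with a median of -0.43, beside 0.01 over all genes tested. With the replicate block 6 were lower and 1 higher, where 10.7% of all genes were called. With a block within each treatment 15 were lower and 2 higher, where 10.9% of all genes were lower and 10.1% higher. The jasmonate median without ozone was -0.45. ACX1, an acyl-CoA oxidase of jasmonate synthesis, had 619, 759 and 899.8 CPM in wrky25 wrky33 ozone, against 1376, 1777 and 1782 CPM in wrky75 ozone (log2 -1.12 ± 0.19 SE, edgeR adjusted p = 0.00454). The repressor genes JAZ5 (-1.31) and JAZ10 (-1.27) lost their calls without any 1 of 7 and 4 libraries (edgeR adjusted p up to 0.134 and 0.0654). With the replicate block both were called (edgeR adjusted p = 0.0118 and 0.000807). Of 23 salicylic acid genes 2 were lower (median 0.17), ALD1 (-2.56 ± 0.54 SE) and FMO1 (-1.79 ± 0.46 SE), which make pipecolic acid and its N-hydroxy form. ALD1 lost its call without any 1 of the 3 wrky25 wrky33 ozone libraries and FMO1 without any 1 of 7 libraries (adjusted p up to 0.0712 and 0.136), FMO1 was not called by DESeq2 (adjusted p = 0.161), and with the replicate block 2 further genes of the list were higher. ICS1, which makes salicylic acid from chorismate, and PR1, a salicylic acid marker, had log2 0.45 and -0.99 (edgeR adjusted p = 0.358 and 0.571). Of 23 abscisic acid genes 2 were lower, ABA3 (-0.69 ± 0.14 SE) and ABI2 (-0.52 ± 0.13 SE); the ABI2 call ended without any 1 of 5 libraries (adjusted p up to 0.119), and 3 were lower and 1 higher with the replicate block.

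In detoxification and defence kinases the changes fell on a few family members. Of 32 glutathione S-transferase genes 6 were lower and 2 higher (25% called, median -0.29), beside 6.64% of all genes tested. GSTU10 had 3.75, 3.42 and 4.92 CPM in wrky25 wrky33 ozone, against 21.6, 27.1 and 25.1 CPM in wrky75 ozone (log2 -2.61 ± 0.17 SE, edgeR adjusted p = 4.59e-06). GSTU3 (-2.97 ± 0.33 SE), GSTU11 (-2.93 ± 0.27 SE) and GSTU12 (-2.76 ± 0.28 SE) were lower as well, and members of this family can share reads. Of 29 cysteine-rich receptor-like kinases 4 were lower and 1 higher (17.2% called, median 0.16). With the replicate block 5 were lower and 5 higher, where 10.7% of all genes were called. CRK20 had 6.38, 7.31 and 6.85 CPM in wrky25 wrky33 ozone, against 28.4, 20.4 and 18.1 CPM in wrky75 ozone (log2 -1.7 ± 0.19 SE, edgeR adjusted p = 0.000202). CRK22 was lower by log2 -1.19 ± 0.12 SE and CRK42 higher by 1.29 ± 0.18 SE, and CRK7 (-1.66 ± 0.36 SE) lost its call without any 1 of 4 ozone libraries (adjusted p up to 0.0751). Of 25 antioxidant enzymes 1 was lower (4%), GSH2, a glutathione synthetase (-0.46 ± 0.11 SE). That call ended without wrky25 wrky33 ozone replicate 2 or wrky75 ozone replicate 3 (edgeR adjusted p = 0.0785 and 0.081). With the replicate block 2 antioxidant enzymes were lower. Of 19 tested regulators responsive to reactive oxygen species 1 was lower (5.26%), the NADPH oxidase gene RBOHF (-0.51 ± 0.09 SE), and 3 with the replicate block. The antioxidant and regulator shares without a block lay under the 6.64% of all genes tested.

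Of 21 phenylpropanoid genes 3 were lower and 0 higher (14.3% called, median -0.14), beside 6.64% of all genes tested. With the replicate block 5 were lower and 1 higher, where 10.7% of all genes were called. FAH1, the ferulate 5-hydroxylase of syringyl lignin, had 109, 114 and 150.2 CPM in wrky25 wrky33 ozone, against 280.1, 315 and 301 CPM in wrky75 ozone (log2 -1.26 ± 0.12 SE, edgeR adjusted p = 7.05e-05). OMT1 (-0.54) and PAL2 (-0.51) lost their calls without any 1 of 5 and 7 libraries (adjusted p up to 0.0945 and 0.141). Of 10 tested mitochondrial retrograde genes 2 were lower and 1 higher (30% called). AOX1D, an alternative oxidase, had 41.1, 64.9 and 50.7 CPM in wrky25 wrky33 ozone, against 114, 248 and 189.7 CPM in wrky75 ozone (log2 -1.82 ± 0.34 SE, edgeR adjusted p = 0.00755). Its call missed the threshold in DESeq2 (adjusted p = 0.0527). NDA2 (-0.68) and UGT74E2 (0.94) lost their calls without any 1 of 8 and 4 libraries (adjusted p up to 0.167 and 0.119). Among 14 tested nitrate genes NRT2.6 and LBD38 (-0.76 ± 0.15 SE) were lower (14.3%). LBD38 had an edgeR adjusted p of 0.0898 when all 20 libraries were fitted. Among 14 tested iron deficiency genes CYP82C4 was lower (7.14%, near the 6.64% of all genes tested). It had 0.0487, 0.185 and 0.092 CPM in wrky25 wrky33 ozone, against 1.61, 1.62 and 0.948 CPM in wrky75 ozone.

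A few lists had members higher in wrky25 wrky33. Of 19 tested heat shock genes 4 were higher and 0 lower (21.1% called, median 0.38), beside 6.64% of all genes tested. With the replicate block 7 were higher, where 10.7% of all genes were called. HSP17.6II, a small heat shock protein, had 20.1, 14.7 and 23.1 CPM in wrky25 wrky33 ozone, against 6.76, 7.85 and 7.87 CPM in wrky75 ozone (log2 1.36 ± 0.28 SE, edgeR adjusted p = 0.013). HSP17.6A (1.27), the mitochondrial HSP23.5 (AT5G51440, 0.86) and the immunophilin ROF2 (AT5G48570, 0.85) were the others, and each of the 4 calls ended without at least 1 ozone library, HSP17.6II without wrky25 wrky33 ozone replicate 3 or wrky75 ozone replicate 3 and the others without 2 to 5 libraries (adjusted p up to 0.109). DESeq2 gave HSP17.6A an adjusted p of 0.477, and without both ozone replicates 1 a single heat shock gene and a single clock gene were called. Of 15 tested clock genes 4 were higher and 0 lower (26.7% called, median 0.27): RVE1 (0.9), PRR9 (0.6), LNK1 (AT5G64170, 0.48) and TOC1 (0.35). All 4 clock calls ended without 3 to 9 single libraries (adjusted p up to 0.162), and 6 genes were higher with the replicate block. Flowering time had 2 of 20 tested higher and 2 lower (20% called). The higher were SVP (0.58 ± 0.11 SE) and TOE1 (RAP2.7, 0.61 ± 0.11 SE). The lower were FLC (-2.01 ± 0.42 SE) and MAF4 (-2.11 ± 0.47 SE). FLC lost its call without wrky25 wrky33 ozone replicate 3 (edgeR adjusted p = 0.0713) and MAF4 without any 1 of 3 ozone libraries (up to 0.0868). Without ozone neither FLC nor MAF4 was called, and FLC had 1.4, 0.603 and 0.845 CPM in wrky25 wrky33 control and 3.07, 1.43 and 3.05 CPM in wrky75 control, with no overlap.

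Single genes were higher in 3 further lists, MYB28 of 18 aliphatic glucosinolate genes (0.66 ± 0.14 SE), CAO (CH1) of 32 photosynthesis genes (0.5 ± 0.13 SE) and PIN3 of 24 auxin genes (0.74 ± 0.17 SE). They made up 5.56%, 3.12% and 4.17% of the tested members, under the 6.64% called over all genes tested. Their calls ended without any 1 of 4, 10 and 3 libraries (adjusted p up to 0.0805, 0.162 and 0.0861), and with the replicate block 3 photosynthesis and 4 auxin genes were higher. Without a block no member was called by edgeR among 19 tested senescence, 22 phosphate starvation, 6 root hair, 19 unfolded protein response, 21 flavonoid, 18 cell wall loosening, 21 cell cycle, 18 sulfate and 21 autophagy genes or 15 reference genes. SAG13 (-2), NAC055 (NAC3, -1.86), the ribonuclease gene RNS1 (2.09), ERDJ3A (ATERDJ3A, 0.47) and ATG7 (APG7, 0.36) were among the members furthest from 0 in these lists. Their edgeR adjusted p in the unblocked fit of the 12 libraries was 0.0657, 0.128, 0.182, 0.136 and 0.16. With the replicate block these 5 passed (adjusted p = 0.0464, 0.00369, 0.043, 0.0421 and 0.0195), and 3 senescence genes were lower, 1 phosphate starvation gene higher and 1 lower, 1 sulfate gene lower, and 1 unfolded protein response and 1 autophagy gene higher.

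The replicate numbers pair the libraries within a treatment, and a block within each treatment raised the counts of most lists, as it did those of all genes. Over all genes tested this block called 21%, 10.1% higher and 10.9% lower. The list counts below were not tested against these shares, and several lie near them. List sizes are those given above. The block called 11 of 12 camalexin and 9 of 10 tryptophan genes, all lower. Lower members also outnumbered higher ones among other WRKY genes (11 lower, 6 higher), jasmonate (15 and 2), ethylene (10 and 2), glutathione S-transferase (14 and 6), pattern-triggered immunity (11 and 7), phenylpropanoid (9 and 2), flavonoid (6 and 2) and sulfate genes (7 and 1). The same held for regulators responsive to reactive oxygen species (6 lower, 2 higher), antioxidant enzymes (5 and 1), mitochondrial retrograde genes (5 and 2) and phosphate starvation genes (4 and 2). Higher members outnumbered lower ones among heat shock (10 higher, 0 lower), clock (7 and 1), photosynthesis (6 and 0), auxin (5 and 1), cysteine-rich receptor-like kinase (9 and 6), abscisic acid (7 and 5), salicylic acid (5 and 4), senescence (4 and 3), flowering time (4 and 3), iron deficiency (4 and 1), cell wall loosening (3 and 1) and autophagy genes (3 and 1). Nitrate genes had 3 of each, aliphatic glucosinolate genes 2 higher, root hair, unfolded protein response and cell cycle genes 1 higher each, and reference genes 1 lower.

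**Figure D4:**
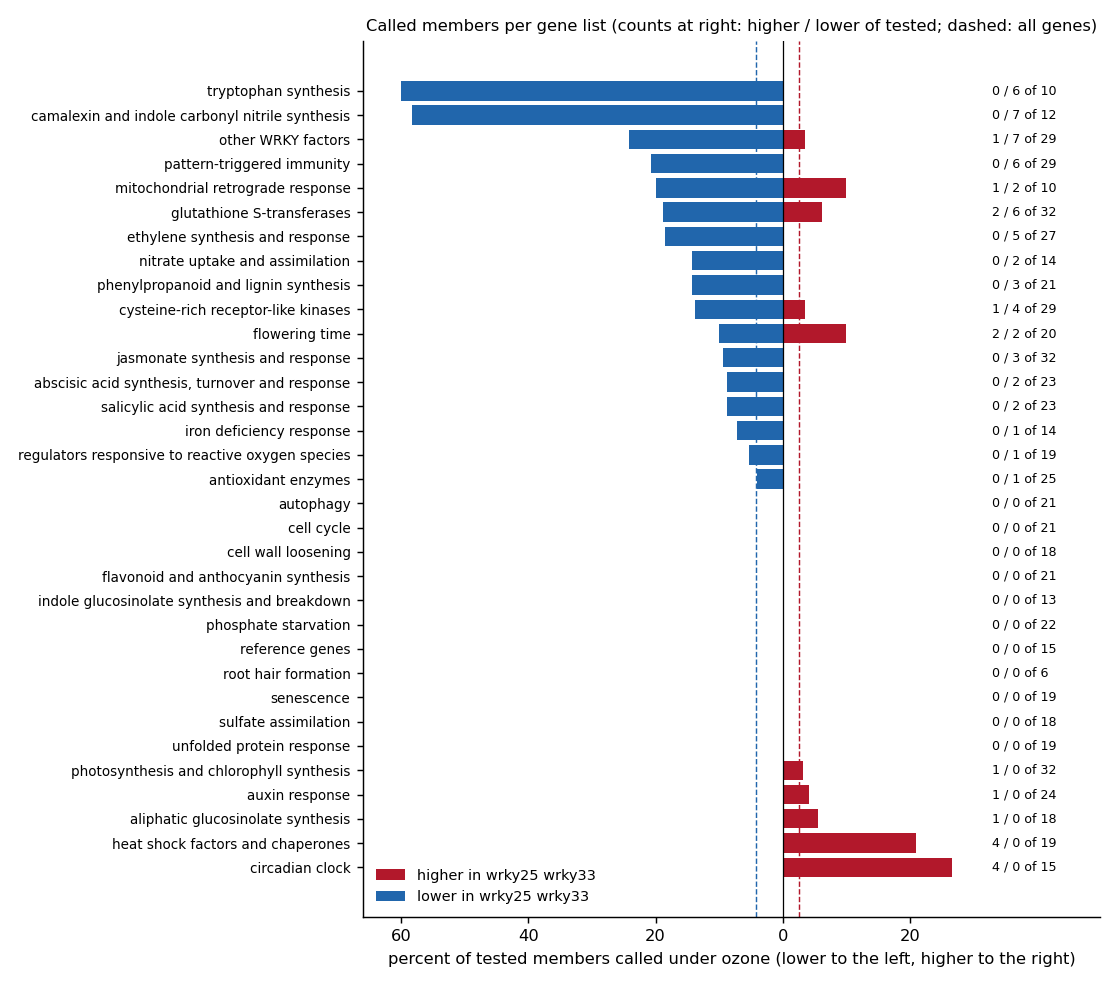
Percent of tested members called under ozone in 33 gene lists, blue bars to the left for lower and red bars to the right for higher in wrky25 wrky33, with counts at the right edge. Dashed lines mark the shares over all genes tested (4.14% lower, 2.5% higher); tryptophan synthesis (6 of 10) and camalexin (7 of 12) reach furthest on the lower side.

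Without ozone the same mutants differed in 4 of 19715 genes (0.0203%) by edgeR, 2 higher (0.0101%) and 2 lower (0.0101%), with 577 genes at an unadjusted p under 0.05, against 3798 under ozone, 9 called by DESeq2 and 10 with a block within each treatment; without any 1 of the 3 wrky25 wrky33 control libraries 2 were called. The 4 were AT5G35935 and ATCHX13 on the higher side and, named for completeness after their values were seen, MRD1 (log2 -6.58) and AT3G30122 (-1.6) on the lower side. All 4 were called in the same direction under ozone, where MRD1 averaged 0.107 CPM in wrky25 wrky33 and 3.15 CPM in wrky75. The ozone difference itself uses no control library, but the control libraries entered the estimate of the spread and so bear on which genes were called: the count was 1069 without wrky25 wrky33 control replicate 3, 1487 without wrky75 control replicate 2 and 1033 with the 6 ozone libraries alone, 862 of them among the 1309. Of the 816 genes lower under ozone 470 (57.6%) had the same sign without ozone, and of the 493 higher genes 315 (63.9%), beside 57.4% over all genes tested. Their median control differences were -0.03 and 0.05.

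**Figure D5:**
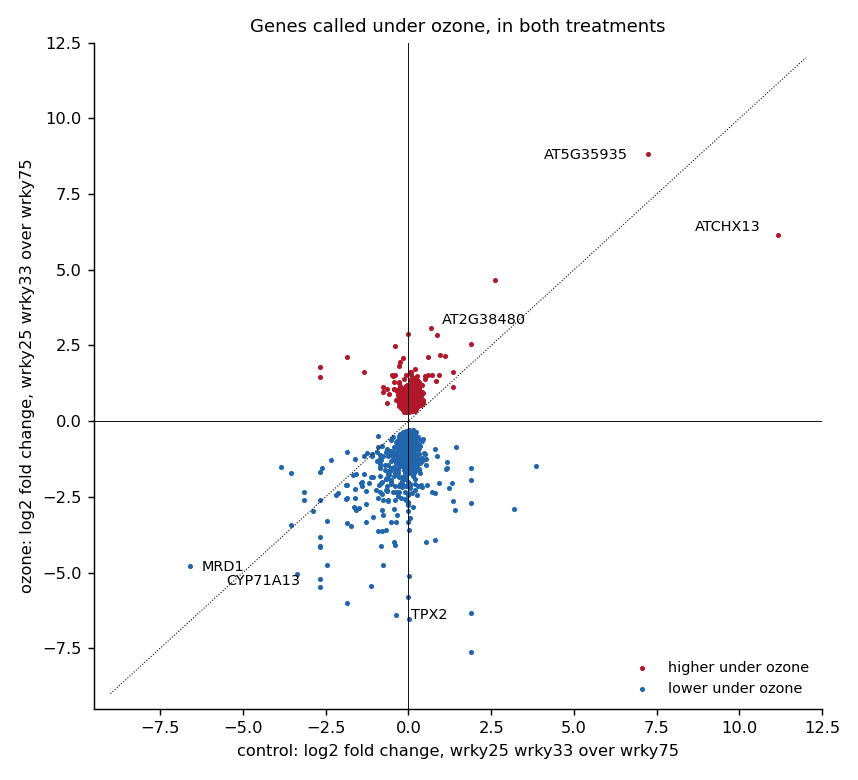
Log2 fold change, wrky25 wrky33 over wrky75, without ozone (horizontal) and with ozone (vertical) for the 1309 genes called under ozone; the dotted line marks equal values. Most points lie in a narrow band around 0 on the control axis, and AT5G35935, ATCHX13 and MRD1 lie far from 0 on both axes; control values of genes with few control counts depend on the prior count.

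The difference of differences, ozone minus control, was called for 171 genes (0.867%), 22 higher (0.112%) and 149 lower (0.756%), with 1955 at an unadjusted p under 0.05; the count was 364 with the replicate block and 1407 with a block within each treatment. It was 87 and 86 without wrky25 wrky33 control replicates 2 and 3, 104, 110 and 106 without wrky25 wrky33 ozone replicates 1 to 3, 88 without wrky75 control replicate 3 and 102 without wrky75 ozone replicate 2. This contrast shares the ozone libraries with the ozone comparison. The largest decreases at a mean of at least 5 CPM over the 12 libraries were BGLU45 (-3.96), NRT2.6 (-3.68), RHA1A (-2.95), GSTU10 (-2.54) and SUS1 (-2.49), and the largest increases AT2G38480 (2.41), CKX4 (1.58), AT1G21060 (1.57), AT5G37540 (1.57) and AT1G28600 (1.52). SUS1, a sucrose synthase, had 44.3, 50.6 and 60.4 CPM in wrky25 wrky33 ozone and 166, 239 and 262 CPM in wrky75 ozone, against 48.1, 81.2 and 72.1 CPM in wrky25 wrky33 control and 48.1, 55.2 and 50.9 CPM in wrky75 control (interaction edgeR adjusted p = 0.00187). CYP71A13 (-2.55) and PAD3 (-0.27) were not called in this contrast (edgeR adjusted p = 0.425 and 0.996), where their control levels were at most 7.97 CPM.

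The Col-0 libraries, which no step above used to choose genes, gave a separate reading of the same genes. In Col-0 ozone changed 65.1% of 19265 genes, 31.2% higher and 33.9% lower than without ozone (edgeR, adjusted p under 0.05). Of 801 lower genes also tested in Col-0, 731 (91.3%) were higher with ozone in Col-0 and 9 lower, with a median Col-0 response of log2 2.23. Of 481 higher genes also tested, 297 (61.7%) were lower with ozone in Col-0 and 93 (19.3%) higher, with a median of -0.78. Genes lower in wrky25 wrky33 were thus mostly ozone-induced in Col-0, and those higher mostly ozone-repressed. The mean Col-0 ozone level lay nearer to wrky75 than to wrky25 wrky33 for 785 of the 816 lower genes (96.2%) and 460 of the 493 higher genes (93.3%), beside 63.8% of all genes tested. CYP71A13 averaged 653 ± 322 CPM and PAD3 1772 ± 267 CPM in Col-0 under ozone (SD, n = 4, scaled over 20 libraries).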

How the data were processed

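RNA was measured in whole rosettes. Raw counts per gene were deposited, as whole numbers without normalisation. The submitters' processing notes name TAIR10 as the build and HTSeq, TopHat2, SAMtools and FastQC as tools. Their versions, the strand option and what was done with multiply mapped reads are not stated there. The files held 33602 genes and 0 entries that named no gene. The labels' protocols name TruSeq RNA v2 for library preparation, a kit that does not mark strand. RefSeq's TAIR10.1 annotation gave symbols and coordinates for 32835 of the loci (97.72%).

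The 12 mutant libraries (20486137 to 20755838 counts each) entered 1 edgeR 4.0.16 fit (limma 3.58.1, R 4.3.3) with 4 group means. Genes were kept with filterByExpr (19715), scaled with TMM factors and tested with the quasi-likelihood F-test, adjusted by Benjamini-Hochberg over all genes tested. The biological coefficient of variation was 15.2%. P-values measure the spread between pools; counting intervals cover counting error only. Promoters and figures were made with Python 3.11.15 and matplotlib 3.10.9. On simulated counts of the ozone contrast over 19633 genes, 92% of 100 genes changed 2-fold and 100% of 100 changed 4-fold were recovered, with 4 unchanged genes called. Only genes above a minimum count were changed there, the spread followed the fitted trend, and same-numbered libraries shared no deviation. These figures thus do not measure recovery or false calls in the real libraries.

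Groups came from sample titles. Same-numbered ozone libraries of the mutants deviated together (correlations of 0.605, 0.449 and 0.364 over genes, for numbers 1 to 3), as did control libraries (0.443, 0.363 and 0.328), so the numbers were taken as pairs within a treatment and blocked values are given where they end or add a call of a named gene or move a count by over 1.5-fold. Alternatives were all 20 libraries, only the 6 ozone libraries, the replicate block, DESeq2 1.42.0, upper-quartile and relative log expression factors, no low-count filter, at least 1 CPM in 6 libraries, and leaving out each library. A block within each treatment and leaving out both ozone replicates 1 were added after seeing the data.

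The comparison, the 34 gene lists (726 genes) and the 10 marker lists were chosen with earlier results of these data known. Named genes were the mutated genes; the 12 largest increases and 12 largest decreases among called genes with at least 5 CPM and no overlap; the 3 with the smallest p in each direction under 5 CPM; up to 4 called members of each list, or the 2 furthest from 0 where none was called; and the 5 largest in each direction of the other contrasts. This gave 115 genes, and some are left out of the text. Gene lengths were not used, so levels are compared only within a gene.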

Additional observations from a re-analysis of the deposited data

Results flagged for a closer look

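For 19 of the named genes the difference between the mutants under ozone was itself different from that without ozone, by edgeR's quasi-likelihood test of the interaction with adjustment over all 19715 genes. Values are the log2 difference under ozone minus that without ozone. On the lower side they were BGLU45 (-3.96), NRT2.6 (-3.68), RHA1A (-2.95), AT4G22960 (-2.9), GSTU10 (-2.54), AT5G16230 (-2.51), SUS1 (-2.49), ASA1 (-1.74), PEPR2 (-1.61), TSA1 (-1.33), FAH1 (-1.2) and CRK22 (-1.14). On the higher side they were AT2G38480 (2.41), CKX4 (1.58), AT1G21060 (1.57), AT5G37540 (1.57), AT1G28600 (1.52), CRK42 (1.15) and RAP2.7 (0.9). The interaction calls of AT1G28600, TSA1, PEPR2, AT5G37540, AT4G22960, CRK42 and RAP2.7 ended when at least 1 library was left out. NRT2.6 was not called with all 20 libraries in 1 fit. Of the 19 genes, 10 had been named as the largest called genes of this same contrast, so their calls were fixed by that choice. Over all genes tested, 171 (0.867%) were called in the interaction.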

How the results depend on the processing

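Of 91 named genes called in the ozone comparison, 56 were called under every alternative run, 35 lost the call under at least 1, and 0 changed sign. With all 20 libraries in 1 fit, 311 genes were called higher (993 in all), and the interaction had 104 calls, 89 of them lower. With only the 6 ozone libraries 311 were called higher (1033 in all). With the replicate block the ozone comparison had 2113 calls (875 higher, 1238 lower), the interaction 364 (86 higher, 278 lower) and the lists 135 called members, against 83 without it; every named gene kept its call. With a block within each treatment, added after seeing the data, these were 4142 (1994 and 2148), 1407 (638 and 769) and 274, and the control comparison had 10. DESeq2 gave 9 control calls and 407 interaction calls (103 higher, 304 lower). Without both ozone replicates 1 the interaction had 38 higher calls. The share of called genes with a promoter match was 39.1%, and 58.1% with TTGAC alone.

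Leaving out each library in turn gave 750 to 1795 ozone calls (208 to 754 higher, 526 to 1041 lower), 2 to 5 control calls and 86 to 246 interaction calls (8 to 57 higher, 77 to 189 lower). CYP81F2, which was not called, ran from log2 -1.19 to 0.14 when 1 library was left out, the positive value without wrky75 ozone replicate 1. The causes were not tested. The median log2 difference of all genes was 0.01 with TMM and 0.031 with upper-quartile factors. With 3 pools a group, small differences of variable genes were not detectable.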
